A study of Mus musculus with 37 samples.

Results

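The genes described are Smyd2, Tatdn3, Ints7, Sertad4, Pm20d1, Clic5, Ide and Tcn2, 8 of the 55536 genes in the deposited liver and cortex count tables. The genes were chosen by their fold changes with TMEM106B loss in earlier results of the same libraries, so their values in those comparisons are a description and not a test. Smyd2, Tatdn3, Ints7 and Sertad4 lie within 2.98 Mb of distal chromosome 1. All 8 passed the filter on low counts in both tissues. A response in both tissues held for some of them only. At an adjusted p under 0.05, Smyd2, Pm20d1 and Ide were called in both tissues in TMEM106B-/- against WT, and Ints7 and Clic5 were called in both in the combined genotype against TDP-43Q331K. Among these, the liver calls of Pm20d1 and Ide each held in 8 of 15 alternative fits, and the cortex call of Ide in 7 of 18. Clic5 in liver pointed the other way in TMEM106B-/- against WT (log2 fold change 0.65 ± 0.29, SE, not called). Tatdn3 was called in cortex only, and Sertad4 and Tcn2 in liver only, and whether the tissues differ was not tested. With oligodendrocyte and meningeal marker sums as covariates, only Pm20d1 kept a cortex call, in the combined genotype against TDP-43Q331K.

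The 37 RNA-seq libraries came from the liver and the cortex of 10-month-old mice. The genotypes were TMEM106B-/- TDP-43Q331K (called the combined genotype), TMEM106B-/-, TDP-43Q331K (the Q331K change in TDP-43, an RNA-binding protein, in a mouse that the series title calls a knock-in) and WT. Liver had 4 libraries of each genotype, and cortex had 5 combined, 5 TMEM106B-/-, 6 TDP-43Q331K and 5 WT libraries. The labels give no further detail of either allele and leave out the strain and whether the libraries of a group are separate animals, so p-values measure the spread between these samples, which may be technical. The question of the series is how gene expression changes with the loss of TMEM106B and with the mutant TDP-43.

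TMEM106B is a membrane protein of late endosomes and lysosomes, and variants near the human gene are known as modifiers of frontotemporal dementia. The 8 genes belong to different pathways. SMYD2 is a lysine methyltransferase, INTS7 a subunit of the Integrator complex that cuts nascent RNA, and TATDN3 a member of the TatD nuclease family. SERTAD4 is a SERTA domain protein. PM20D1 is a secreted enzyme that makes and breaks down N-acyl amino acids, CLIC5 is a chloride intracellular channel family protein linked to ezrin and the actin cortex, IDE is the insulin-degrading metalloprotease, which also cleaves amyloid beta, and TCN2 is transcobalamin, the plasma carrier that brings vitamin B12 into cells.

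Values are CPM (counts-per-million of a library). Liver libraries held 50.5 to 74.1 M counts and cortex libraries 28.8 to 46.3 M counts. Tissue labels matched their markers: 8 hepatocyte genes summed to 98557 to 135911 CPM in liver and to at most 14.6 CPM in cortex, and 8 neuron genes to 8366 to 10180 CPM in cortex and at most 11.6 CPM in liver. Transcript of the targeted gene was not called lower under its label. Tmem106b averaged 135 ± 9.15 CPM in combined, 115 ± 9.32 in TMEM106B-/-, 91.9 ± 21.3 in TDP-43Q331K and 96.5 ± 16.3 in WT liver (SD, n = 4 each), and 199.995 ± 13.5, 184 ± 6.66, 181 ± 6.79 and 188 ± 4.69 CPM in the same order in cortex (n = 5, 5, 6 and 5). In liver it was called higher in combined than in TDP-43Q331K libraries (0.56 ± 0.15, adjusted p = 0.0497 by edgeR). Every direction given for TMEM106B loss therefore rests on the labels. Some libraries stood apart from their groups. In liver, 12 acute phase genes summed to 22403 CPM in combined replicate 1, 29599 in TMEM106B-/- replicate 4 and 23466 in WT replicate 2, against 7932 to 14833 CPM in the other livers. In cortex, 6 oligodendrocyte genes summed to 1083 to 2429 CPM in combined, 994 to 1430 in TMEM106B-/-, 1883 to 3044 in TDP-43Q331K and 2800 to 3181 in WT libraries, and 8 meningeal genes to 46.8 to 93.7, 35.1 to 121, 28.2 to 63.7 and 17.0 to 46.7 CPM in the same order. In bulk RNA, fewer cells of a type and less RNA per cell cannot be told apart.

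Per kilobase of exon, the genes fell in a different order in each tissue. In WT liver the level was 31.6 ± 3.38 CPM per kb for Tcn2, 10.4 ± 1.77 for Pm20d1, 6.41 ± 1.09 for Smyd2, 3.54 ± 0.82 for Ide, 2.68 ± 0.578 for Ints7, 2.27 ± 0.613 for Tatdn3, 0.187 ± 0.155 for Sertad4 and 0.122 ± 0.0361 for Clic5 (SD, n = 4). The neighbours from Ide to Tatdn3, and Sertad4 and Clic5, did not differ beyond their spread. In WT cortex it was 10.5 ± 0.288 for Smyd2, 8.14 ± 0.855 for Ints7, 6.88 ± 2.14 for Ide, 5.72 ± 0.517 for Tatdn3, 4.84 ± 0.247 for Tcn2, 2.70 ± 0.225 for Sertad4, 1.33 ± 0.0817 for Clic5 and 0.247 ± 0.0366 for Pm20d1 (SD, n = 5). There Ide overlapped Ints7, Tatdn3 and Tcn2 within its SD. Pm20d1, second in liver, was the lowest of the 8 in cortex.

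Fold changes are log2 values ± SE from edgeR, fitted over all genes of a tissue, and a gene is called at an adjusted p under 0.05. With TMEM106B loss on the normal TDP-43 background, TMEM106B-/- against WT, 4 of the 8 genes were called in liver (1.05% of the 16710 genes tested) and 6 of 8 in cortex (5.16% of 21248). The libraries of the groups did not overlap for 4 of 8 in liver (7.19% of all genes) and 6 of 8 in cortex (5.89%). On the TDP-43Q331K background, combined against TDP-43Q331K, 4 of 8 were called in liver (3.94% of all genes) and 4 of 8 in cortex (1.4%), and the groups did not overlap for 5 of 8 in liver (15% of all genes) and 4 of 8 in cortex (2.21%). These comparisons chose the genes, so the counts carry no evidence of their own.

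**Figure D1:**
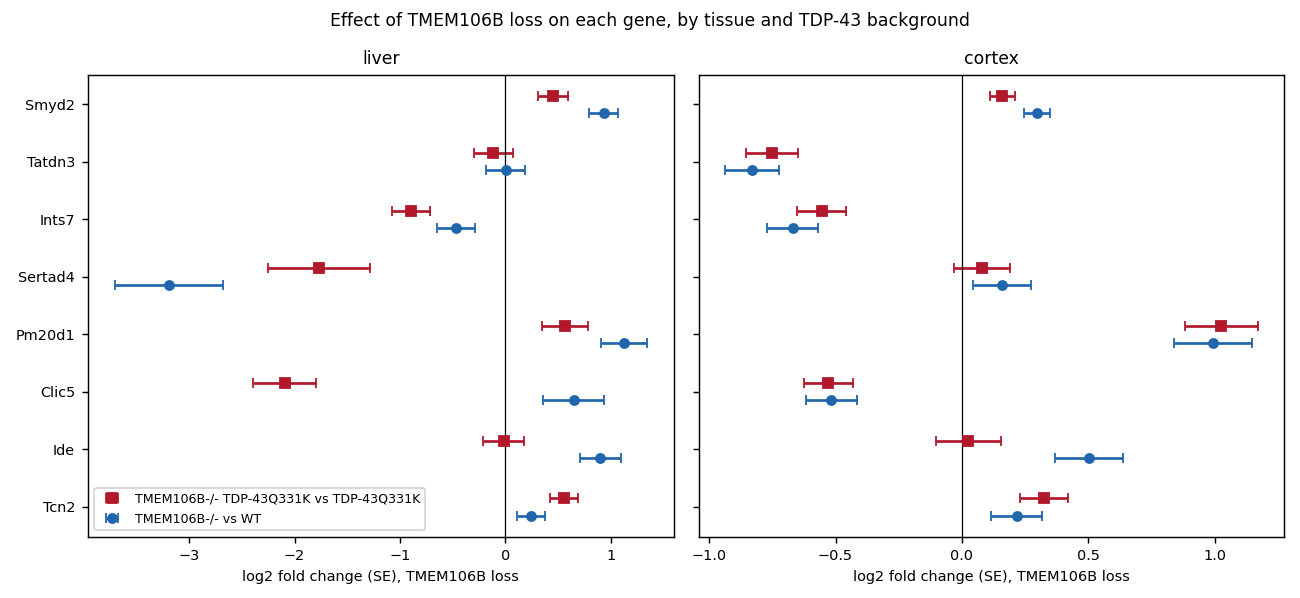
Log2 fold change with its SE (horizontal axis) of each gene with TMEM106B loss, in liver (left) and cortex (right), on the TDP-43Q331K background (squares) and the normal background (circles). Smyd2, Pm20d1 and Tcn2 lie above 0 in all 4 comparisons and Ints7 below it, while Clic5 in liver reads -2.10 on the TDP-43Q331K background and 0.65 on the normal one.

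Smyd2 (ENSMUSG00000026603, GRCm38 chr1:189880492-189922363, minus strand) was higher with TMEM106B loss in both tissues. In liver it had 32.4, 37.0, 32.2 and 31.7 CPM in TMEM106B-/- libraries, against 17.1, 13.4, 19.5 and 19.8 CPM in WT libraries. All 4 TMEM106B-/- livers lay far above every WT liver, a 1.91-fold difference (0.93 ± 0.14). The combined livers had 24.0, 24.9, 36.2 and 32.3 CPM, against 22.5, 21.1, 22.3 and 19.9 CPM in TDP-43Q331K livers (0.45 ± 0.14, not called). These groups did not overlap either, but combined replicates 1 and 2 came close to the TDP-43Q331K libraries.

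In cortex the same direction was smaller. Smyd2 had 36.1, 35.02, 36.6, 35.7 and 31.9 CPM in TMEM106B-/- cortex, against 27.8, 27.9, 29.2, 28.2 and 29.5 CPM in WT cortex (0.30 ± 0.05, 1.23-fold). It had 32.8, 33.8, 30.2, 33.97 and 32.3 CPM in combined cortex, against 27.0 to 32.2 CPM with a median of 28.4 CPM in the 6 TDP-43Q331K libraries (0.16 ± 0.05, not called). The first pair of groups was fully apart and the second overlapped. With the oligodendrocyte and meningeal sums added to the model as covariates, an alternative chosen after seeing the data, TMEM106B-/- against WT gave 0.30 ± 0.10, not called. Of the other 4 SMYD methyltransferases tested, edgeR called 0 in any comparison, with 0 to 1 at an unadjusted p under 0.05. The annotated genes Gm38245 and Gm37422 overlap Smyd2, the second on the other strand, and the counting strand is not given in the sources used here, so reads of these genes may be mixed.

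**Figure D2:**
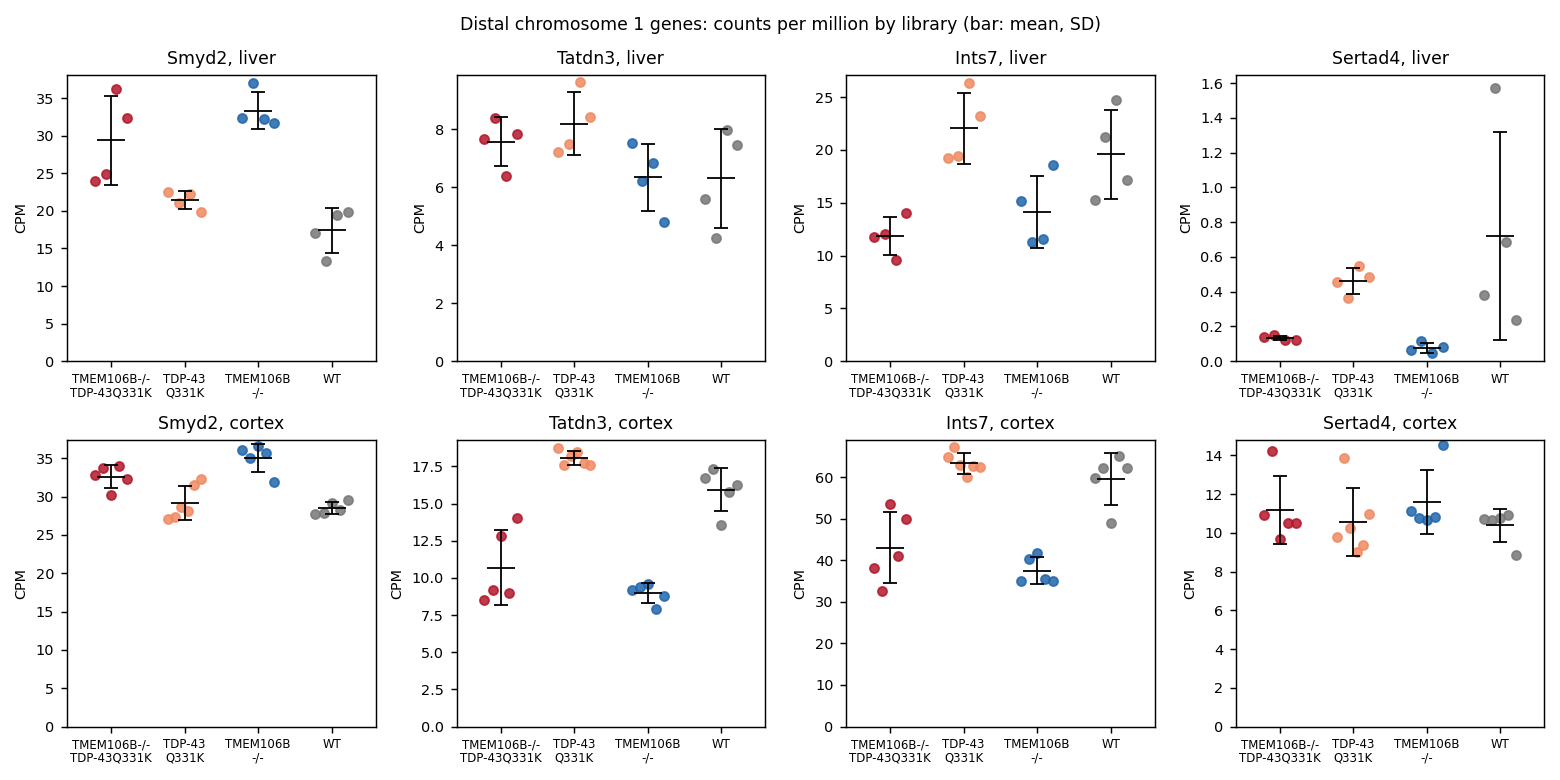
CPM of the 4 distal chromosome 1 genes in every liver (top) and cortex (bottom) library, by genotype, with the mean (bar) and SD. Smyd2 separates TMEM106B-/- from WT and the combined genotype from TDP-43Q331K in liver, Tatdn3 and Ints7 separate TMEM106B-/- from WT in cortex, and Sertad4 is under 1.6 CPM in every liver but between 8.85 and 14.5 CPM in cortex.

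Tatdn3 (ENSMUSG00000026632, chr1:191045826-191062932, minus strand) and Ints7 (ENSMUSG00000037461, chr1:191575636-191623688, plus strand) lie 513 kb apart and are each transcribed away from a close neighbour. The annotated starts of Tatdn3 and Nsl1 are 80 bp apart, and those of Ints7 and Dtl 92 bp apart. The bases between each pair of starts are shown because the gene on the one side differed in cortex and the gene on the other side was not called. For Nsl1 this is no contrast with Tatdn3, as Nsl1 was too low for a difference of that size to be detectable. The bases are from the RefSeq promoter sequences of build GRCm38.p6, 5′ to 3′ on the strand of the named gene, with matches to the motifs searched in capitals. The first is chr1:191062933-191063011, minus strand, and the second chr1:191575545-191575635, plus strand.
Tatdn3: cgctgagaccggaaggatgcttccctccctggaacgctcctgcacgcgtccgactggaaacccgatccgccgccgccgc
Ints7: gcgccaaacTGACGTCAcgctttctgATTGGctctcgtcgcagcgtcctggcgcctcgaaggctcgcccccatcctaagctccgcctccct
The motifs were the CCAAT box, the GC box (GGGCGG), the TATA box (TATAAA), the E-box (CACGTG) and the core of the cAMP response element (TGACGT), searched on both strands. The Ints7 stretch holds TGACGT on both strands in overlapping positions, which 3.87% of 32851 windows of the same 91 bases and position hold at least once, and CCAAT on the opposite strand (17.5% of windows). The 79 bases of the Tatdn3 stretch hold none of the 5. The share of G and C was 69.6% in the Tatdn3 stretch of 79 bases, where windows of the same length and place over all promoters had a median of 55.7% and an upper quartile of 65.8%. It was 64.8% in the Ints7 stretch of 91 bases, where such windows had a median of 54.9% and an upper quartile of 65.9%. These letters say nothing of which factors bind there.

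In cortex Tatdn3 separated the genotypes cleanly on the normal background. It had 9.17, 9.38, 9.59, 7.92 and 8.78 CPM in TMEM106B-/- libraries, against 16.7, 17.3, 13.6, 15.8 and 16.3 CPM in WT libraries (-0.83 ± 0.11, 1.78-fold lower). It had 8.53, 9.17, 12.8, 8.96 and 14.0 CPM in combined libraries, against 17.6 to 18.7 CPM with a median of 18.0 CPM in TDP-43Q331K libraries (-0.75 ± 0.10, 1.68-fold lower). No library of a TMEM106B-/- genotype reached the lowest library of its control, yet combined replicates 3 and 5 sat between the groups, and WT replicate 3 was the lowest WT library.

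Ints7 followed in the same libraries. It had 34.98, 40.3, 41.7, 35.4 and 35.1 CPM in TMEM106B-/- cortex, against 59.7, 62.2, 48.9, 65.0 and 62.1 CPM in WT cortex (-0.67 ± 0.10, 1.59-fold lower). It had 38.2, 32.7, 53.5, 41.1 and 49.8 CPM in combined cortex, against 60.0 to 67.2 CPM with a median of 62.7 CPM in TDP-43Q331K cortex (-0.55 ± 0.10, 1.47-fold lower). Again combined replicates 3 and 5 and WT replicate 3 were the intermediate libraries. Over the 21 cortex libraries, Ints7 was the gene most like Tatdn3 of all those tested (Pearson r 0.963 of log2 CPM, libraries that share genotype and tissue makeup), and next came Clic5 on chromosome 17 (r 0.917) and the mitochondrial tRNA gene mt-Tp (0.915).

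Dtl, across the start from Ints7, averaged 7.84 ± 0.352 CPM in TMEM106B-/- and 7.83 ± 1.22 CPM in WT cortex (SD, n = 5 each; 0.00 ± 0.10), and 6.94 ± 0.741 CPM in combined and 7.95 ± 0.905 CPM in TDP-43Q331K cortex (-0.19 ± 0.10, adjusted p = 0.307). Nsl1, across from Tatdn3, was at 0.0325 to 0.633 CPM in every library of both tissues, too low for a difference of the size seen in Tatdn3 to be detectable (-0.54 ± 0.37 in TMEM106B-/- against WT cortex, adjusted p = 0.465).

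The liver gave another picture for this pair of genes. Tatdn3 had 7.53, 6.21, 6.82 and 4.82 CPM in TMEM106B-/- livers, against 5.59, 4.26, 7.96 and 7.45 CPM in WT livers, with full overlap (0.00 ± 0.19). In combined livers it had 7.67, 8.37, 6.38 and 7.84 CPM, against 7.21, 7.50, 9.61 and 8.41 CPM in TDP-43Q331K livers (-0.11 ± 0.19). Neither was called. Ints7 was lower in combined livers at 11.7, 12.1, 9.62 and 14.0 CPM, against 19.3, 19.4, 26.3 and 23.2 CPM in TDP-43Q331K livers (-0.89 ± 0.18, 1.86-fold lower), with no overlap. On the normal background Ints7 had 15.1, 11.3, 11.6 and 18.5 CPM in TMEM106B-/- livers, against 15.3, 21.3, 24.7 and 17.1 CPM in WT livers (-0.47 ± 0.18, not called). TMEM106B-/- replicate 4 was there inside the WT range. Of the other 17 Integrator genes tested, edgeR called 0 in any comparison of either tissue, with 0 to 3 at an unadjusted p under 0.05. The other 2 TatD genes, Tatdn1 and Tatdn2, were not called by edgeR in any comparison, with 0 to 2 at an unadjusted p under 0.05. Gm37349 overlaps Ints7 on the same strand, so its reads may be counted with it.

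**Figure D3:**
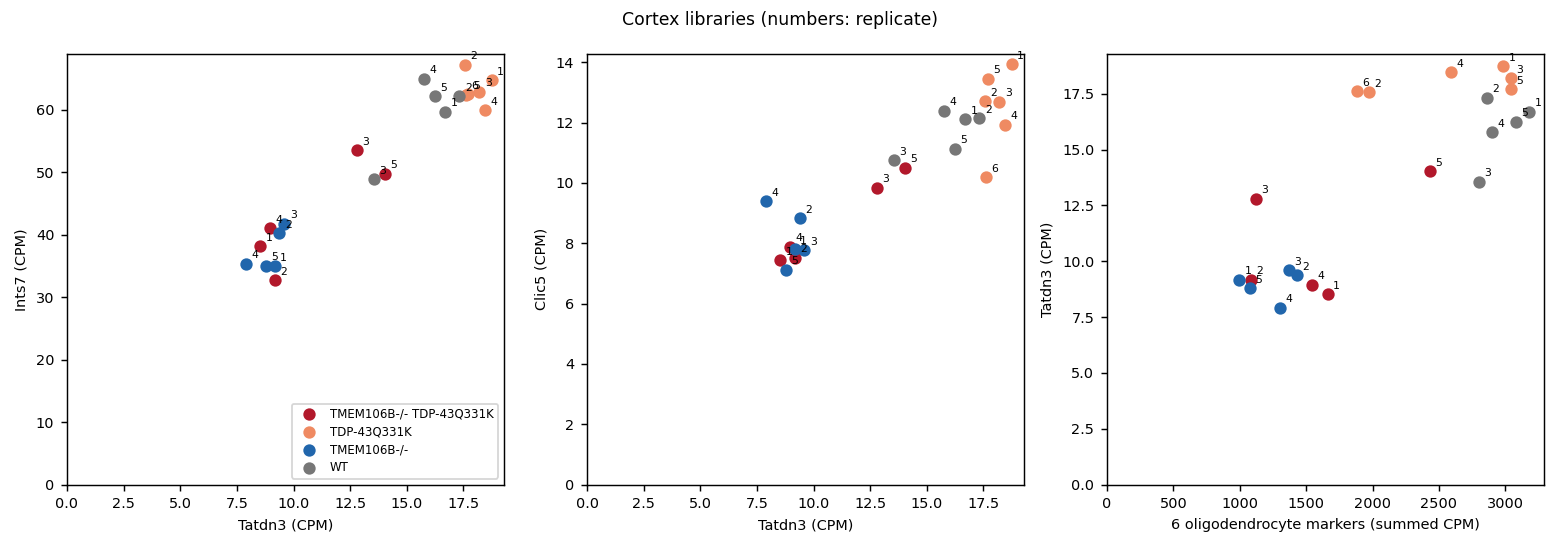
Cortex libraries, with replicate numbers, for Ints7 against Tatdn3 (left), Clic5 against Tatdn3 (middle) and Tatdn3 against the summed CPM of 6 oligodendrocyte markers (right). Combined replicates 3 and 5 and WT replicate 3 lie between the groups in the left and middle plots. In the right plot the markers sum to 1083 to 2429 CPM in combined and 1883 to 3044 CPM in TDP-43Q331K libraries. As single examples, combined replicate 3 has 12.8 CPM of Tatdn3 at 1123 CPM of markers and TDP-43Q331K replicate 6 has 17.6 CPM at 1883 CPM. Whether Tatdn3 follows the markers was not tested.

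The oligodendrocyte sum moved with genotype beside Tatdn3, Ints7 and Clic5 in cortex. On the normal background the 994 to 1430 CPM of TMEM106B-/- libraries did not overlap the 2800 to 3181 CPM of WT libraries, so marker level and genotype cannot be told apart there. On the TDP-43Q331K background the ranges overlapped. With the oligodendrocyte and meningeal sums as covariates, the alternative named above, combined against TDP-43Q331K gave -0.62 ± 0.14 for Tatdn3 and -0.45 ± 0.13 for Ints7, and -0.32 ± 0.12 for Clic5. TMEM106B-/- against WT gave -0.60 ± 0.19 for Tatdn3 and -0.49 ± 0.19 for Ints7, and -0.17 ± 0.17 for Clic5. None of these was called, in a fit that called 1 gene lower and 0 higher in TMEM106B-/- against WT and 1 lower and 6 higher in combined against TDP-43Q331K.

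Sertad4 (ENSMUSG00000016262, chr1:192844488-192855756, minus strand), the last gene of the block, was nearly silent in liver. The count was 3, 7, 3 and 6 in TMEM106B-/- livers, against 22, 85, 49 and 17 in WT livers, or 0.0467 to 0.114 CPM against 0.24 to 1.57 CPM. It was 9, 10, 8 and 7 in combined livers, against 28, 22, 30 and 32 in TDP-43Q331K livers, or 0.121 to 0.151 CPM against 0.365 to 0.546 CPM. Neither pair of groups overlapped, and the fitted differences were -3.20 ± 0.52 and -1.77 ± 0.48. WT replicate 2, a liver with high acute phase transcripts, was the highest of all. Without the 3 livers of high acute phase sums the differences were -2.51 and -1.79.

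Sertad4 was well expressed in cortex, where the ranges of the genotypes overlapped. It had 11.1, 10.8, 10.6, 10.8 and 14.5 CPM in TMEM106B-/- cortex, against 10.7, 10.7, 10.8, 10.9 and 8.85 CPM in WT cortex (0.16 ± 0.12, not called). It had 10.9, 14.2, 9.67, 10.5 and 10.5 CPM in combined cortex, against 9.04 to 13.9 CPM with a median of 10.0 CPM in TDP-43Q331K cortex (0.08 ± 0.11, not called). A few single libraries reached about 14 CPM in 3 of the genotypes. The 3 genes most like Sertad4 across the 16 livers, 1110019D14Rik (r 0.905), Cd207 (0.896) and Eva1a (0.867), are all on chromosome 6. The other 4 genes of the SERTA family list were not called by edgeR in any comparison, with 0 to 2 at an unadjusted p under 0.05. Gm15867 lies on the opposite strand of Sertad4, so reads of the pair may be mixed.

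Neighbours of the 4 genes were read from 2 Mb before Smyd2 to 2 Mb after Sertad4. In this window, 7 of 58 other tested genes (12.1%, where all genes gave 5.16%) were called in TMEM106B-/- against WT cortex and 4 of 58 (6.90%, where all genes gave 1.4%) in combined against TDP-43Q331K cortex. All of these lay between Smyd2 and Sertad4, where 7 of 31 other tested genes (22.6%) were called in the first comparison and 4 of 31 (12.9%) in the second. As the oligodendrocyte sums of TMEM106B-/- and WT cortex did not overlap, marker level and genotype cannot be told apart for the first comparison. With the marker sums as covariates, 0 genes of the whole table were called higher and 1 lower in the first comparison. In the second, 6 were called higher and 1 lower. In liver the window had 0 of 38 others called by edgeR in TMEM106B-/- against WT (1.05% of all genes) and 3 of 38 (7.89%) in combined against TDP-43Q331K (3.94% of all genes). The stretch between Smyd2 and Sertad4 had 0 of 23 others called in the first of these and 2 of 23 (8.70%) in the second. Flvcr1, a heme and choline transporter gene near Tatdn3, averaged 26.4 ± 1.16 CPM in TMEM106B-/- and 19.99 ± 1.57 CPM in WT cortex (SD, n = 5 each; 0.40 ± 0.07, adjusted p = 0.00149 by edgeR), and 26.2 ± 3.29 in combined and 20.96 ± 0.967 CPM in TDP-43Q331K cortex (0.32 ± 0.07, adjusted p = 0.0208). The pseudogenes Gm8407 (1.22 ± 0.21) and Gm37095 (1.13 ± 0.26) beside it and the potassium channel gene Kcnh1 (0.23 ± 0.05) were also higher in TMEM106B-/- than in WT cortex. Gm37095 was low, averaging 1.48 ± 0.183 CPM in TMEM106B-/- and 0.671 ± 0.32 CPM in WT cortex (SD, n = 5 each). Pseudogene counts may hold reads of near-identical copies. Lower in TMEM106B-/- than in WT cortex were Batf3 (-1.24 ± 0.36), the homeobox gene Prox1 (-0.37 ± 0.08) and the acyltransferase gene Lpgat1 (-0.24 ± 0.05). Batf3 was near the floor, at 0.101 to 0.627 CPM in TMEM106B-/- and 0.428 to 1.21 CPM in WT cortex, and these groups overlapped. In combined against TDP-43Q331K cortex, Gm8407 (1.14 ± 0.21) and Gm32200 (0.79 ± 0.20) were higher and Lpgat1 (-0.28 ± 0.05) lower. In combined against TDP-43Q331K liver, D730003I15Rik (0.71 ± 0.16) and Ppp2r5a (0.40 ± 0.11) were higher, and Diexf, past Sertad4, was lower (-0.47 ± 0.11). No gene of the stretch was called for TDP-43Q331K against WT or for combined against TMEM106B-/- in either tissue. Of all genes, 0.263% and 1.04% were called for these in liver and 0% for both in cortex. With shares this low, the lack of calls carries no evidence about the stretch.

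**Figure D4:**
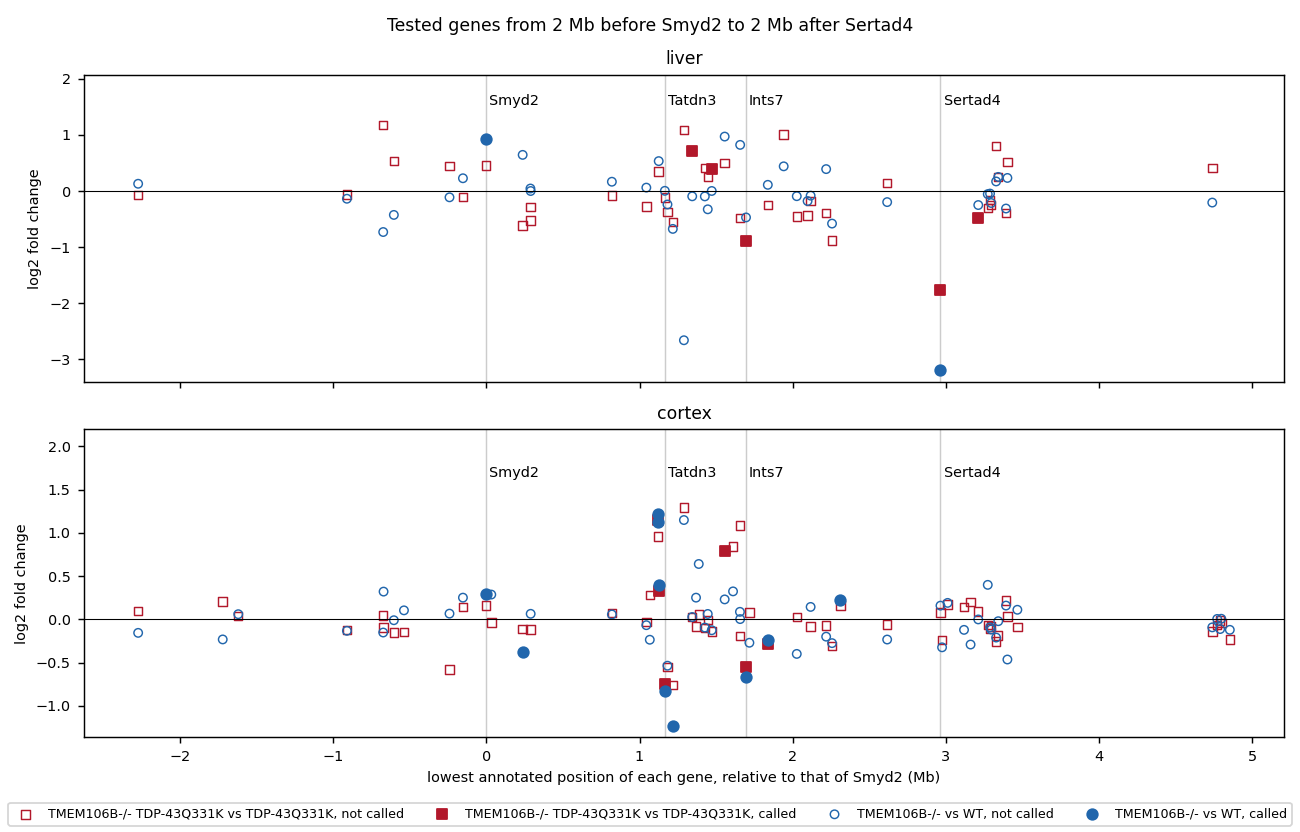
Log2 fold change of every tested gene around the 4 chromosome 1 genes (vertical axis) by the distance of its lowest annotated position from that of Smyd2 in Mb, in liver (top) and cortex (bottom). Filled symbols are called. In cortex several lie near Tatdn3 and point both ways, with Gm8407 at 1.22 and Batf3 at -1.24 for TMEM106B-/- against WT. Batf3 was at 1.21 CPM or less in these libraries.

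Pm20d1 (ENSMUSG00000042251, chr1:131797381-131821473, plus strand) is on the same chromosome but 58.1 Mb before the block. It was higher with TMEM106B loss in both tissues. In liver it had 169, 178, 206 and 86.9 CPM in TMEM106B-/- libraries, against 84.5, 55.5, 75.6 and 77.4 CPM in WT libraries (1.13 ± 0.22, 2.19-fold). It had 96.3, 165, 150.2 and 134 CPM in combined livers, against 96.6, 93.5, 80.6 and 97.3 CPM in TDP-43Q331K livers (0.57 ± 0.22, not called). TMEM106B-/- livers stayed above WT livers, with replicate 4 only just so, and combined replicate 1 was inside the TDP-43Q331K range. The lowest library in the combined, TMEM106B-/- and WT groups was in each case the one with the high acute phase sum. Without these 3 livers the differences were 1.22 for TMEM106B-/- against WT and 0.70 for combined against TDP-43Q331K, where the gene was then called.

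In cortex Pm20d1 was low but fully apart. It had 3.32, 4.46, 2.66, 3.44 and 3.33 CPM in TMEM106B-/- libraries, against 1.44, 1.71, 1.58, 2.11 and 1.83 CPM in WT libraries (0.99 ± 0.16, 1.99-fold). It had 3.88, 4.11, 3.92, 3.18 and 4.82 CPM in combined libraries, against 1.39 to 2.44 CPM with a median of 2.04 CPM in TDP-43Q331K libraries (1.03 ± 0.14, 2.04-fold). Every library of a TMEM106B-/- genotype was above every library of the other genotypes. The meningeal sum had higher medians in these genotypes, at 70.7 CPM in combined, 76.5 in TMEM106B-/-, 35.3 in TDP-43Q331K and 33.2 CPM in WT cortex, with overlapping ranges on both backgrounds. With both marker sums as covariates the differences were 1.0001 ± 0.26 for TMEM106B-/- against WT and 1.03 ± 0.18 for combined against TDP-43Q331K, and Pm20d1 was the only one of the 8 still called, in the second of these.

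Among the other genes of N-acyl amino acid and M20 metabolism, 0 of 6 tested in liver were called with TMEM106B loss on either background. Of 7 in cortex, 1 was called in TMEM106B-/- against WT (5.16% of all genes). In combined against TDP-43Q331K cortex, 0 were called (1.4% of all genes), with 3 at an unadjusted p under 0.05. The called gene was Aspa, aspartoacylase, which breaks down N-acetylaspartate and is known from oligodendrocytes. It was at 11.6 ± 0.879 CPM in TMEM106B-/- and 23.0 ± 2.63 CPM in WT cortex (SD, n = 5 each, log2 fold change -0.996 ± 0.12, adjusted p = 6.06e-05 by edgeR). The genes most like Pm20d1 were Erbb4 (r 0.935), its chromosomal neighbour Ctse (0.911) and Osbpl3 (0.900) in liver, and Chil1 (0.892), Runx1 (0.869) and Kit (0.867) in cortex. Rab7b, near Pm20d1, was higher in cortex on both backgrounds, at 1.32 ± 0.256 CPM in TMEM106B-/- and 0.558 ± 0.165 CPM in WT cortex (1.25 ± 0.23) and at 1.18 ± 0.271 CPM in combined and 0.571 ± 0.163 CPM in TDP-43Q331K cortex (1.04 ± 0.22). Within 2 Mb of Pm20d1, 6 of 64 other genes were called in TMEM106B-/- against WT cortex (9.38%, where all genes gave 5.16%). Slc41a1 (0.34 ± 0.07), Ikbke (0.66 ± 0.19) and Sox13 (0.36 ± 0.10) were also higher, and Pik3c2b (-0.53 ± 0.10) and Cntn2 (-0.42 ± 0.10) were lower. In combined against TDP-43Q331K cortex, 2 of 64 were called (3.12%, where all genes gave 1.4%), Rab7b and, in the other direction, Etnk2 (-0.91 ± 0.17). In TMEM106B-/- against WT liver, 0 of 57 other genes were called (1.05% of all genes). In combined against TDP-43Q331K liver, 5 of 57 were called (8.77%, where all genes gave 3.94%). Nuak2 (-1.33 ± 0.23), Mdm4 (-0.61 ± 0.12) and Gm38394 (-1.38 ± 0.37) were lower there. Ctse and Ren1 were higher and uneven between libraries, Ctse at 0.233 to 50.8 CPM in combined and 0.0904 to 0.273 CPM in TDP-43Q331K livers, and Ren1 at 0.031 to 38.995 CPM in combined and 0 to 0.0182 CPM in TDP-43Q331K livers.

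**Figure D5:**
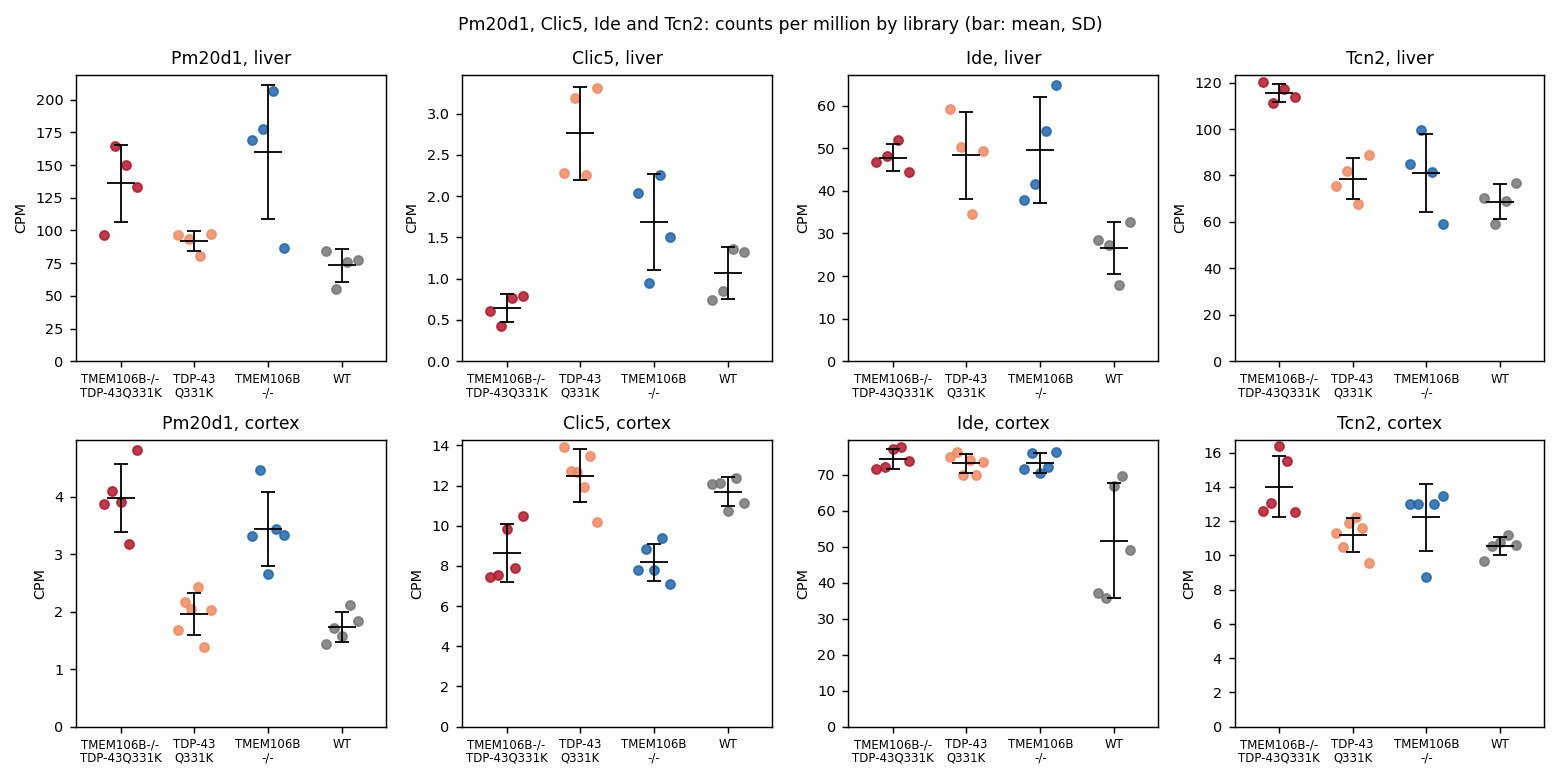
CPM of Pm20d1, Clic5, Ide and Tcn2 in every liver (top) and cortex (bottom) library, by genotype, with the mean (bar) and SD. Ide is lowest in WT in both tissues, while Clic5 in liver is highest in TDP-43Q331K and lowest in the combined genotype.

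Clic5 (ENSMUSG00000023959, chr17:44188584-44280172, plus strand) was lower with TMEM106B loss in cortex on both backgrounds. It had 7.81, 8.83, 7.77, 9.40 and 7.12 CPM in TMEM106B-/- cortex, against 12.1, 12.1, 10.8, 12.4 and 11.1 CPM in WT cortex (-0.52 ± 0.10, 1.43-fold lower). It had 7.43, 7.52, 9.84, 7.88 and 10.5 CPM in combined cortex, against 10.2 to 13.9 CPM with a median of 12.7 CPM in TDP-43Q331K cortex (-0.53 ± 0.10, 1.44-fold lower). The first pair of groups did not overlap, and combined replicate 5 passed the lowest TDP-43Q331K library.

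In liver, where Clic5 was at 3.32 CPM or less, the backgrounds went apart. It had 2.04, 0.943, 2.26 and 1.51 CPM in TMEM106B-/- livers, against 0.744, 0.851, 1.36 and 1.33 CPM in WT livers (0.65 ± 0.29, not called), and these groups overlapped. It had 0.605, 0.422, 0.764 and 0.794 CPM in combined livers, against 2.29, 3.19, 2.26 and 3.32 CPM in TDP-43Q331K livers (-2.10 ± 0.30, 4.27-fold lower). The combined livers did not overlap the TDP-43Q331K livers, and the TDP-43Q331K livers did not overlap the WT livers. The difference between the effects of TMEM106B loss on both backgrounds was -2.74 ± 0.42 on the log2 scale (0.688% of all genes were called for it). Of the other members of the CLIC family, 2 were tested in liver and 3 in cortex, and edgeR called 0 in any comparison, with 0 to 1 at an unadjusted p under 0.05. Of 6 genes for ezrin, its relatives and partners, 1 was called, in combined against TDP-43Q331K liver (3.94% of all genes). There 3 of the 6 were at an unadjusted p under 0.05. The called gene was the scaffold gene Slc9a3r1, at 258 ± 49.6 CPM in combined and 403 ± 67.6 CPM in TDP-43Q331K livers (SD, n = 4 each, log2 fold change -0.64 ± 0.15, adjusted p = 0.0231 by edgeR). Within 2 Mb of Clic5, 2 of 35 other genes were called in combined against TDP-43Q331K livers (5.71%, where all genes gave 3.94%), and they went opposite ways. Rcan2, the nearer one, averaged 9.57 ± 2.32 CPM in combined and 4.31 ± 0.455 CPM in TDP-43Q331K livers (1.15 ± 0.20), and Adgrf1 was at 0.492 ± 0.327 CPM in combined and 5.17 ± 0.832 CPM in TDP-43Q331K livers (-3.39 ± 0.45). In TMEM106B-/- against WT liver, 0 of 35 were called (1.05% of all genes). The same comparison in cortex called 1 of 43 (2.33%, where all genes gave 5.16%), Enpp4, which was lower (-0.31 ± 0.08). In combined against TDP-43Q331K cortex, 0 of 43 were called (1.4% of all genes).

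Ide (ENSMUSG00000056999, chr19:37268743-37337852, minus strand) was called between TMEM106B-/- and WT in both tissues and not between combined and TDP-43Q331K. The difference between these effects was itself not called, at -0.92 ± 0.27 in liver (adjusted p = 0.122 by edgeR) and -0.48 ± 0.19 in cortex (adjusted p = 0.999). It had 37.8, 41.6, 54.0 and 65.0 CPM in TMEM106B-/- livers, against 28.4, 27.3, 18.0 and 32.6 CPM in WT livers (0.90 ± 0.19, 1.87-fold). In cortex it had 71.6, 76.1, 70.3, 72.1 and 76.3 CPM in TMEM106B-/- libraries, against 37.0, 35.7, 66.9, 69.7 and 49.2 CPM in WT libraries (0.50 ± 0.13, 1.42-fold). WT was the low group in both tissues, and in cortex the WT libraries were scattered, with replicates 3 and 4 near the other genotypes and replicates 1 and 2 far below.

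On the TDP-43Q331K background, Ide had 46.8, 48.3, 51.9 and 44.4 CPM in combined livers, against 59.2, 50.2, 34.5 and 49.5 CPM in TDP-43Q331K livers (-0.02 ± 0.19). It had 71.4, 72.1, 77.1, 77.5 and 73.8 CPM in combined cortex, against 69.8 to 76.4 CPM with a median of 73.8 CPM in TDP-43Q331K cortex (0.03 ± 0.13). Both pairs overlapped. Btaf1, the gene most like Ide across the 21 cortex libraries (r 0.861), lies 256 kb before it on chromosome 19 and also had its lowest values in WT replicates 1 and 2, at 84.8 and 73.9 CPM. Its average was 115 ± 7.64 CPM in TMEM106B-/- and 98.5 ± 18.5 CPM in WT cortex (SD, n = 5 each; 0.22 ± 0.09, adjusted p = 0.189 by edgeR). Of the other 9 genes of the list of M16 metalloproteases and insulin clearance, edgeR called 0 in any comparison, with 0 to 2 at an unadjusted p under 0.05. The pseudogene Rpl10-ps6 lies inside Ide on the same strand. Within 2 Mb of Ide, 0 of 30 other genes were called in TMEM106B-/- against WT liver (1.05% of all genes). In cortex 5.41% of 37 were (5.16% of all genes), Myof higher (0.80 ± 0.22) and Pcgf5 lower (-0.15 ± 0.04). In combined against TDP-43Q331K, Rbp4 was called lower in cortex (-0.53 ± 0.12), 2.70% of 37 (1.4% of all genes). In liver Hectd2os was higher (0.96 ± 0.21) and Pde6c lower (-1.64 ± 0.43), 6.67% of 30 (3.94% of all genes).

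Tcn2 (ENSMUSG00000020432, chr11:3917192-3932159, minus strand) was highest in combined livers. It had 120, 111, 117 and 114 CPM in combined livers, against 75.6, 82.0, 67.9 and 88.6 CPM in TDP-43Q331K livers (0.56 ± 0.13, 1.47-fold), with no overlap. This call held in 8 of 15 alternative fits and was lost in 7. Tcn2 had 84.8, 99.6, 81.6 and 59.0 CPM in TMEM106B-/- livers, against 70.3, 59.1, 68.9 and 76.9 CPM in WT livers (0.24 ± 0.13, not called). TMEM106B-/- replicate 4, a liver with high acute phase transcripts, was the lowest of all 16.

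In cortex Tcn2 leaned the same way and was not called. It had 13.0, 13.0, 8.72, 13.0 and 13.5 CPM in TMEM106B-/- libraries, against 9.69, 10.5, 10.8, 11.2 and 10.6 CPM in WT libraries (0.22 ± 0.10). It had 12.6, 13.1, 16.4, 15.5 and 12.5 CPM in combined libraries, against 9.57 to 12.2 CPM with a median of 11.4 CPM in TDP-43Q331K libraries (0.32 ± 0.10). All combined libraries were above all TDP-43Q331K libraries, and TMEM106B-/- replicate 3 was below every WT library while the other 4 were above. Among 15 other genes of cobalamin uptake and use tested in liver, 1 was called in TMEM106B-/- against WT (1.05% of all genes). In combined against TDP-43Q331K liver, 0 were called (3.94% of all genes). At an unadjusted p under 0.05 were 6 and 2 in these comparisons, and 6 in TDP-43Q331K against WT. The called gene was Mmab, which makes adenosylcobalamin, at 32.2 ± 6.80 CPM in TMEM106B-/- and 19.4 ± 2.95 CPM in WT livers (SD, n = 4 each, log2 fold change 0.74 ± 0.15, adjusted p = 0.0256 by edgeR). Of 16 in cortex, 1 was called in TMEM106B-/- against WT (5.16% of all genes) and 1 in combined against TDP-43Q331K (1.4%). Both comparisons had 4 at an unadjusted p under 0.05. The called gene was each time the receptor gene Cubn, at 1.90 ± 0.848 CPM in TMEM106B-/- and 0.701 ± 0.126 CPM in WT cortex (SD, n = 5 each, log2 fold change 1.45 ± 0.30, adjusted p = 0.00583 by edgeR). In combined against TDP-43Q331K cortex its fold change was 1.27 ± 0.28 (adjusted p = 0.0312 by edgeR). Tcn2 in liver was most like Acss3 (r 0.934), Corin (0.931) and Cd36 (0.924), and in cortex most like Clu (0.852), Cpe (0.850) and Plagl1 (0.843). Within 2 Mb of Tcn2, 0 of 61 other genes were called in TMEM106B-/- against WT liver (1.05% of all genes). In cortex 4.48% of 67 were (5.16% of all genes), Dusp18 (0.36 ± 0.07) and Aebp1 (1.33 ± 0.34) higher and Gal3st1 (-0.56 ± 0.13) lower. In combined against TDP-43Q331K, 0 of 67 were called in cortex (1.4% of all genes). In liver 1 of 61 was (1.64%, where all genes gave 3.94%), Gm11963, lower (-1.68 ± 0.39).

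The comparisons for TDP-43Q331K itself use the same libraries as those that chose the genes. Low WT values of Ide and high TDP-43Q331K values of Clic5, for example, enter both, so the values and adjusted p below are a description and not independent evidence. In TDP-43Q331K against WT liver, edgeR called 0 of the 8 genes (0.263% of all genes), with 3 at an unadjusted p under 0.05, 2 called by DESeq2 and 0 by limma-voom. The groups did not overlap for 3 of 8, Clic5, Ide and Smyd2 (8.64% of all genes). Those nearest to the threshold were Clic5 (1.36 ± 0.29, 2.57-fold higher, adjusted p = 0.0575 by edgeR) and Ide (0.87 ± 0.19, 1.82-fold higher, adjusted p = 0.0662). These are the genes that DESeq2 called. In TDP-43Q331K against WT cortex none was called of 8 or of all 21248 genes (0%), with 1 at an unadjusted p under 0.05 and 0 called by DESeq2 or limma-voom. That gene was Ide (0.50 ± 0.13, adjusted p = 0.511), whose 6 TDP-43Q331K libraries were all above the 5 WT libraries, as were those of Tatdn3 (0.18 ± 0.10). No other member had groups apart there (0.852% of all genes did).

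With TMEM106B lost on both sides, combined against TMEM106B-/-, Clic5 was lower in liver. The low combined livers are also those of the comparison that chose it, so its call is not independent evidence. The combined livers had 0.422 to 0.794 CPM and the TMEM106B-/- livers 0.943 to 2.26 CPM, a 2.61-fold difference (-1.38 ± 0.30, adjusted p = 0.0323 by edgeR, lower in 4 of 4 libraries), and it was the 1 of 8 genes called by edgeR (1.04% of all genes), where DESeq2 called 2, Clic5 and Tcn2. The groups did not overlap for 3 of 8, Clic5, Tcn2 and Sertad4 (8.99% of all genes). The call was lost with limma-voom, in a fit of only the compared groups and without the livers of high acute phase sums, and when any of 6 single libraries was left out. The 6 were TMEM106B-/- replicates 1 and 3 and each of the 4 combined livers, with adjusted p up to 0.123. In TMEM106B-/- and combined cortex, edgeR called 0 of 8 (0% of all genes), with 1, Tatdn3 (0.26 ± 0.11, adjusted p = 0.970), at an unadjusted p under 0.05 and 0 called by DESeq2 or limma-voom. None of the 8 had groups that did not overlap there (0.386% of all genes did).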

How the data were processed

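RNA was sequenced from liver and cortex in 37 libraries. Per the labels' protocols, Trizol was used for total RNA and a directional kit for the libraries. The submitters' processing notes name Trim Galore, cutadapt and FastQC, and builds GRCm38 and mm10. Aligner, counting program and strand setting were not given in the sources used here. Values were deposited raw counts per gene, with no normalization by the authors. All 55536 identifiers matched GENCODE M21. 1 cortex column that matched no label was left out.

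Each tissue was fitted with its 4 genotypes together in R 4.3.3 with edgeR 4.0.16: filterByExpr (minimum count 10, minimum total 15), TMM scaling and the robust quasi-likelihood test, two-sided, with Benjamini-Hochberg adjustment over all genes (16710 in liver, 21248 in cortex) and 12 and 17 residual degrees of freedom. The biological coefficient of variation (common) came to 0.235 for liver and 0.103 for cortex. CPM values use TMM-scaled library sizes. The fit was tested on simulated counts, drawn with the spread that the same fit had estimated. These held no shifts in tissue makeup and no libraries that stood apart, so they cannot vouch for calls that either affects. Alternatives were DESeq2-type (RLE) scaling, all genes unfiltered, replicate number as a block, DESeq2 1.42.0, limma-voom (limma 3.58.1), only the compared groups, leaving out each library or those that stood apart, and, added after seeing the data, marker sums as covariates in cortex.

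The members, lists, windows and alternatives were chosen with earlier results of these data known. The genes named beside the 8 members include the targeted gene, called genes of the family lists and window genes called with TMEM106B loss. For some members they include those with the highest Pearson r.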

Additional observations from a re-analysis of the deposited data

Results flagged for a closer look

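In 64 sets of 1 gene in 1 genotype and tissue, 5 held a library far from the others of its group, and chance alone gives about 5% of sets. Smyd2 was at 37.0 CPM in TMEM106B-/- liver replicate 2, against 31.7 to 32.4 CPM in the other 3 livers of that genotype. Sertad4 was at 14.2 CPM in combined cortex replicate 2 (9.67 to 10.9 CPM in the others), at 14.5 CPM in TMEM106B-/- cortex replicate 5 (10.6 to 11.1 CPM) and at 8.85 CPM in WT cortex replicate 5 (10.7 to 10.9 CPM). Tcn2 was at 8.72 CPM in TMEM106B-/- cortex replicate 3 (13.0 to 13.5 CPM), and without that library Tcn2 was called in TMEM106B-/- against WT cortex (0.31, adjusted p = 0.0235 by edgeR), where adjusted p ranged from 0.0235 to 0.915 over the alternatives.

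The effect of TMEM106B loss on Clic5 in liver differed between the TDP-43 backgrounds, by -2.74 ± 0.42 on the log2 scale, with all 4 combined livers below all 4 TDP-43Q331K livers. It was called in all 22 alternatives run, with values from -2.94 to -2.57. It is built from the comparisons that chose the gene, so it is a description.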

How the results depend on the processing

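No called log2 fold change of a member changed sign under any alternative. In liver, the number of the 8 genes called in TMEM106B-/- against WT was 1 in a fit of only the compared groups and 2 to 4 with each library left out (2 without WT replicate 2 or 3 or TMEM106B-/- replicate 3, with Pm20d1 and Ide lost), against 4. In combined against TDP-43Q331K it was 2 to 3 with each library left out, against 4 (2 without replicate 1, 2 or 3 of either genotype), and Sertad4 was lost each time and in 10 of 15 alternatives. In TDP-43Q331K against WT it was 1 without the filter on low counts, 2 with DESeq2 and 0 to 1 with each library left out (1 without TDP-43Q331K replicate 3). In combined against TMEM106B-/- it was 2 with DESeq2, 0 with limma-voom, 0 in a fit of the compared groups alone and 0 without the libraries that stood apart, and 0 to 2 with each library left out (2 without TMEM106B-/- replicate 2). In cortex, leaving out each library gave 5 to 7 in TMEM106B-/- against WT and 4 to 5 in combined against TDP-43Q331K, and the marker covariates gave 0 and 1. The libraries left out as standing apart were 3 livers with high acute phase sums and 4 cortices with extreme tissue markers in earlier results.

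Ide in cortex TMEM106B-/- against WT kept its call in 7 of 18 alternatives, with a difference of 0.40 without WT replicate 2. Replicate numbers gave no clear pairing of the libraries. The median correlation of deviations at the same number was -0.03 in liver and -0.01 in cortex, and 8 of 16 and 2 of 21 libraries correlated best with their own number. The liver count is above what an even spread over the replicate numbers would give, so pairing in liver is not settled. With the replicate block, Pm20d1 lost its call in TMEM106B-/- against WT liver (1.10) and Tcn2 in combined against TDP-43Q331K liver (0.56). Depth limits Sertad4 and Clic5 in liver and Nsl1 in both tissues, where single libraries held few reads.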
